A study of Mus musculus with 7 samples.

Results

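The genes described here fold, modify, export and crosslink collagen. They were chosen by symbol from the annotation as 45 genes for collagen hydroxylases, collagen chaperones, lysyl oxidases, general chaperones of the endoplasmic reticulum (ER), the COPII export coat and the sensors of ER stress, and all 45 were found among the 43346 genes quantified. The tissue was the tibial growth plate, the cartilage that lengthens the bone, from 7 male mice killed at 21 days of age. Every mouse was an F1 hybrid, with no treatment named in the labels, of the inbred strain C57BL/6J (B6) and the wild-derived inbred strain CAST/EiJ (CAST), so every cell carried a chromosome set of each strain and both alleles were compared within the same animal. All mice form a single group, and which strain was the mother was not stated in the sources used here. The mice keep their numbers from the labels, 1 to 5, 7 and 8. The question was whether the B6 and CAST alleles of a gene contribute unequal amounts of RNA, and Loxl1 is the member that lies inside Feml2, the chromosome 9 interval for femur length that the study dissected.

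Collagen chains enter the ER as they are made. There, prolines and lysines are hydroxylated, the chains are checked and joined into a triple helix by chaperones, and the finished procollagen leaves in COPII-coated carriers. Outside the cell its end peptides are removed and lysyl oxidases start the crosslinks that make the fibre strong. Growth plate chondrocytes secrete large amounts of collagen and depend on this route, and loss of several of its genes is known to cause brittle bone or short stature.

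For each mouse, estimated read counts were given for the B6 allele and the CAST allele of every gene. The counts sum to between 14098019 in mouse 7 and 37849667 in mouse 5, so the ratios of mouse 7 rest on the fewest counts. Reads that match both alleles equally are divided between them, so a count is larger than the number of reads that tell the alleles apart, and that number is unknown. The tissue was labelled as growth plate chondrocyte. All 11 chondrocyte markers examined were present, led by Col2a1, and so were all markers examined for osteoblasts (led by Col1a1), osteoclasts, erythroid cells, neutrophils, B-lineage cells, endothelium and muscle, with none at 0. The growth plates had been dissected and homogenised whole. In such bulk samples fewer cells of a type and less RNA per cell cannot be told apart.

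As a group, the 45 genes made up between 1.23% of the counts on protein-coding genes in mouse 1 and 1.46% in mouse 4. Levels were taken over both alleles as counts per kb of exon per 1000000 protein-coding counts, so that genes of different length could be compared. A procollagen chaperone was highest, a hydroxylase subunit and a general chaperone followed, and the lowest were a prolyl hydroxylase subunit, a co-chaperone, a Golgi tether and a stress sensor. Serpinh1, which encodes the collagen chaperone HSP47, had a level of 1419 ± 187 (SD, n = 7). P4hb, the shared subunit of the collagen prolyl 4-hydroxylases and also a disulfide isomerase, followed at 551 ± 45.5, then the calcium-binding chaperone Calr at 259 ± 23.9 and the prolyl isomerase Fkbp10 at 177 ± 17.8. These 4 did not overlap: the lowest mouse for Serpinh1 was at 1187 and the highest for P4hb at 605, the lowest for P4hb was at 468 and the highest for Calr at 307, and the lowest for Calr was at 238 and the highest for Fkbp10 at 204. Pcolce (150 ± 17.9) and Ppib (145 ± 17.7), next in order, did overlap. At the other end stood P4ha3 at 3.16 ± 0.488, Dnajb9 at 3.86 ± 0.767, Trip11 at 4.41 ± 0.582 and Ern1 at 4.54 ± 0.376, whose ranges overlapped. Divided by the longest transcript instead of all exons, the first 3 kept their places, but Pcolce (222 ± 26.5) stood above Fkbp10 (201 ± 20.3) and P4ha3 (4.13 ± 0.636) above Dnajb9 (4.00 ± 0.794).

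**Figure D1:**
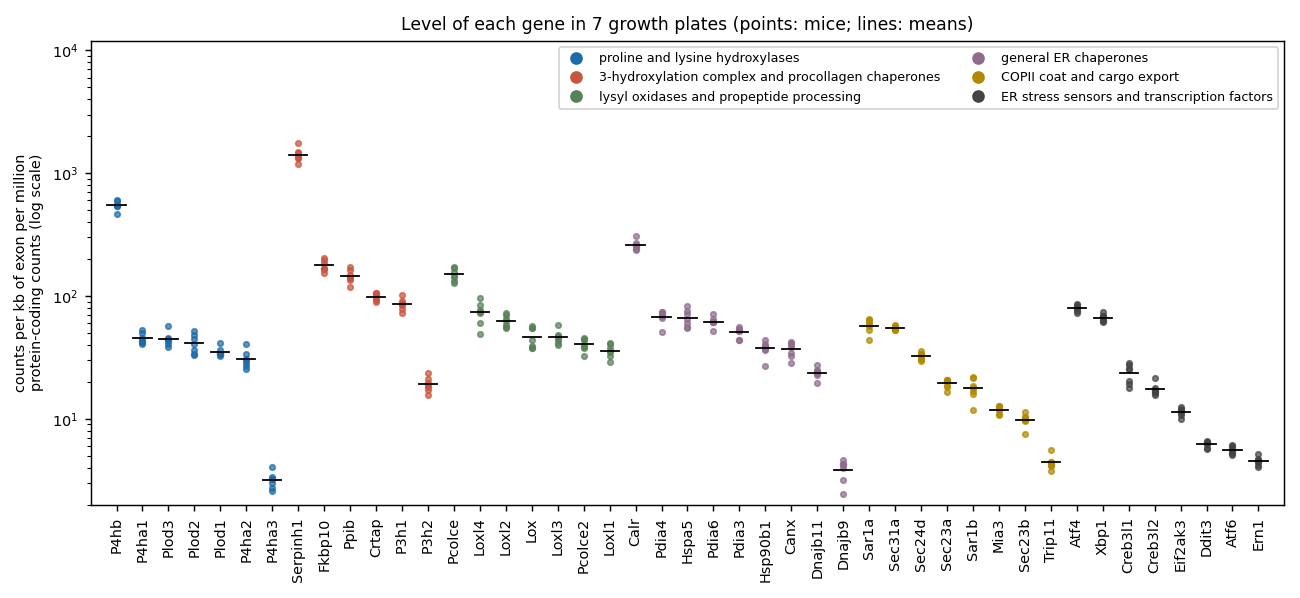
Level of each of the 45 genes in each of the 7 mice, grouped by role, as counts per kb of exon per 1000000 protein-coding counts on a log axis; points are mice and horizontal lines are means. Serpinh1 stands highest at 1419 and P4ha3 lowest at 3.16.

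Between the alleles, 18 of the 45 genes differed at a false discovery rate (FDR) below 0.20, the study's threshold, in edgeR's likelihood-ratio test adjusted over all 20229 genes tested. The CAST allele was higher in 8 and the B6 allele in 10. The study does not say over which genes its own FDRs were adjusted, so the same threshold may not be equally strict here. Those 18 are 40.0% of the members, beside 34.6% of all genes tested, and by direction 17.8% were CAST-higher beside 16.4% of all genes and 22.2% B6-higher beside 18.3%. Among genes with a mean total of at least 1000 counts, 14 of 39 members (35.9%) passed beside 30.3% of such genes. The median log2 fold change, given throughout as CAST relative to B6, was -0.02 for the members and 0.02 for all genes tested, and its median size was 0.14 for the members and 0.22 for all genes tested. For genes with at least 1000 counts the median sizes were 0.12 and 0.11. In this fit the members' shares thus lay within a few percentage points of the background. Each allele column was scaled by itself, so Pdia6, with identical counts on both alleles, had a log2 fold change of 0.02. The fitted values therefore lean slightly toward CAST. With 1 library size per mouse, Pdia6 was at 0, and 6 members passed with CAST higher and 11 with B6 higher. All 45 members are autosomal, but the background also holds X-linked genes, of which these males carry 1 copy. The background shares given here, for any fit or direction, are therefore not strictly like for like.

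Because both alleles were read from the same library, the fit was repeated with the mouse as a block. It passed 35 of the 45 genes (77.8%), 17 with CAST higher and 18 with B6 higher, beside 45.5% of all genes tested. Among genes with at least 1000 counts it passed 31 of 39 members (79.5%) beside 62.1%. All 18 genes passed in both fits and 17 passed only with the block. With the block and the quasi-likelihood test the number was 34, and the call lost was Pdia3 (FDR = 0.210). Blocked FDRs are from the likelihood-ratio test unless named. The quasi-likelihood test allows for error in the estimated spread. Its FDRs were larger for the strongest calls, as given beside several of them. Neither test allows for reads divided between the alleles, which can make the ratios of the mice look more alike than they are. The blocked FDRs may thus be too small, and their size is not a measure of how sure a difference is. Without any model, 24 of the 45 genes (53.3%) had the same allele higher in all 7 mice, 11 CAST and 13 B6, beside 24.4% of all genes tested; among genes with at least 1000 counts these were 20 of 39 members (51.3%) beside 39%. For a gene with 1 direction in all 7 mice, an exact permutation test that flips the sign of each mouse, two-sided, gives p = 0.0156, the smallest that 7 mice allow. Of the 18 genes, 16 had 1 direction in all mice, and 13 passed with any 1 mouse left out; the other 5 are named with their roles.

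Not every count can be placed on a gene with the same certainty. The summed count of both alleles departed from a whole number by more than 0.0001 in at least 1 mouse for 18 members and in all mice for 10, which happens when reads are divided between genes. Of these 10, 9 share more than 5% of their exon bases with another annotated gene, mostly on the opposite strand, and 6 of the 10 are among the 18 genes that passed. Counting members not whole in at least 1 mouse, 10 passed. Beyond those 6, these were Plod1 (not whole in 6 mice), P4ha2 (4), P4ha3 (3) and Pdia4 (1). Pdia4 shares 0.58% of its exon bases with another gene and the others share none.

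**Figure D2:**
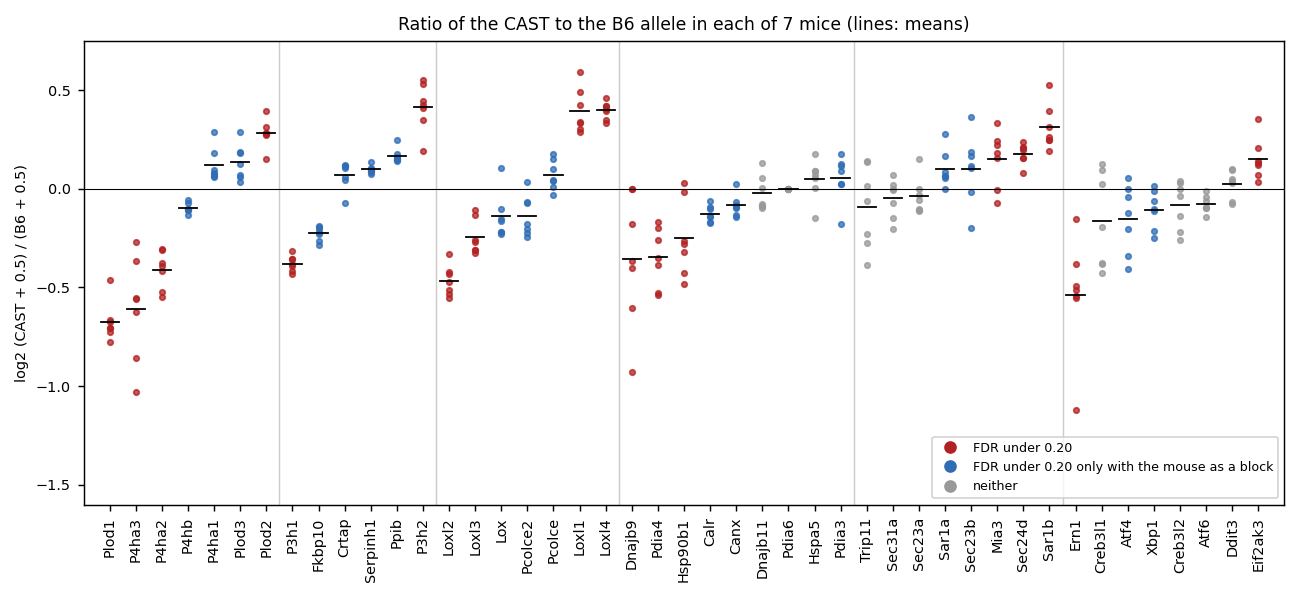
Log2 ratio of CAST to B6 counts for each of the 45 genes in each of the 7 mice, grouped by role; points are mice, horizontal lines are means, and colour marks the genes below an FDR of 0.20, below it only with the mouse as a block, or neither. Plod1, P4ha3 and Ern1 lie below 0 in every mouse, and P3h2, Loxl1 and Loxl4 above 0 in every mouse.

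The hydroxylases add the hydroxyl groups that hold the collagen helix together and on which crosslinks form. Of 7 genes, 4 passed the test, 3 with B6 higher and Plod2 with CAST higher, and all 7 had 1 direction in every mouse and passed with the block. Over all genes tested, 34.6% passed, 45.5% passed with the block and 24.4% had 1 direction in every mouse. For genes with at least 1000 counts these shares were 30.3%, 62.1% and 39%. Plod1, a lysyl hydroxylase that acts on the helix (chr4:147909753-147936767), had between 883 and 2718 CAST counts (median 1832) and between 1441 and 3745 B6 counts (median 2929). The B6 count was the higher one in every mouse, with the log2 ratio running from -0.77 in mouse 1 through a median of -0.70 to -0.46 in mouse 5. The log2 fold change was -0.65 ± 0.109 (SE, n = 7), that is 1.57-fold higher B6 expression (FDR = 4.01e-08). Plod2, the lysyl hydroxylase of the chain ends that form crosslinks (chr9:92542223-92608428), went the other way, with 1400 to 3762 CAST counts (median 2438) and 1143 to 3111 B6 counts (median 2007). Its log2 ratio was above 0 throughout, from 0.15 in mouse 4 to 0.39 in mouse 7 (median 0.28), and the log2 fold change was 0.31 ± 0.114 (FDR = 0.0345). Its summed count was never whole, and 6.42% of its exon bases overlap another annotated gene. The third family member, Plod3, was CAST-higher by 0.15 on the log2 scale, with an FDR of 0.493 without the block and 5.55e-05 with it.

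The collagen prolyl 4-hydroxylase is built from an alpha subunit, encoded by P4ha1, P4ha2 or P4ha3, and the beta subunit from P4hb. P4ha2 (chr11:54100095-54131665) had 763 to 2170 CAST counts (median 1714) against 943 to 2814 B6 counts (median 2153). The B6 allele was ahead in each mouse, by least in mouse 7 (-0.31) and by most in mouse 2 (-0.55), and the log2 fold change was -0.40 ± 0.141 (median ratio -0.39, FDR = 0.0239). P4ha3 (chr7:100285520-100319699) rested on few counts, 38.4 to 120 from CAST (median 89.1) and 56.6 to 145 from B6 (median 138). Its ratios were the more scattered, from -1.03 in mouse 8 to -0.27 in mouse 3 (median -0.56), all of them B6-higher, with a log2 fold change of -0.56 ± 0.162 (FDR = 0.00361). P4ha1 was CAST-higher in all mice, by 0.14 ± 0.0916 (FDR = 0.293, and 0.000342 with the block). For P4hb, the highest of the group, CAST counts ran from 7638 to 21187 (median 15334) and B6 counts from 8027 to 22780 (median 16829). Its ratios lay in a narrow band between -0.13 and -0.06 (median -0.10), all on the B6 side, and the log2 fold change of -0.08 ± 0.104 had an FDR of 0.724 without the block and 5.02e-14 with it (0.000808 by quasi-likelihood).

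A second group of 6 genes acts on procollagen in the ER: P3h1, Crtap and Ppib form the complex that 3-hydroxylates single prolines, P3h2 is a related 3-hydroxylase, Serpinh1 binds the folded helix and Fkbp10 isomerises prolines. P3h1 and P3h2 passed the test in opposite directions. P3h1 (chr4:119232915-119248975) had 1295 to 4075 CAST counts (median 2970) and 1745 to 5219 B6 counts (median 3755). The mice agreed closely, with log2 ratios from -0.43 in mouse 7 to -0.32 in mouse 1 (median -0.38), and the B6 allele was 1.28-fold higher (log2 fold change -0.36 ± 0.120, FDR = 0.0146). P3h2 (chr16:25959288-26105784) had 352 to 1330 CAST counts (median 875) and 243 to 909 B6 counts (median 642). CAST was ahead in each mouse, from 0.19 in mouse 8 to 0.55 in mouse 5 (median 0.42), and the log2 fold change was 0.43 ± 0.127 (1.35-fold, FDR = 0.00429). Of the exon bases of P3h2, 28.4% overlap Gm4524 on the opposite strand and its summed count was never whole, so its counts may be shared with that gene.

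The partners of P3h1 in its complex had the higher mean count on CAST. Crtap was CAST-higher in 6 of 7 mice (log2 fold change 0.09 ± 0.0976, FDR = 0.629; with the block 0.0110). Ppib, cyclophilin B, was CAST-higher in all 7, by 0.19 ± 0.113 (FDR = 0.257; with the block 8.80e-43, or 9.88e-05 by quasi-likelihood), though 25.0% of its exon bases overlap Snx22 on the opposite strand. Serpinh1, the most abundant of all 45, had 16923 to 47046 CAST counts (median 36164) and 15913 to 44395 B6 counts (median 33416). The CAST allele was slightly ahead in every mouse, from 0.08 in mouse 8 to 0.14 in mouse 3 (median 0.09), with a log2 fold change of 0.12 ± 0.132 that had an FDR of 0.633 without the block and 5.61e-33 with it (4.88e-05 by quasi-likelihood). Fkbp10 was B6-higher in all mice, with a log2 fold change of -0.21 ± 0.119 (FDR = 0.232; with the block 3.34e-36, or 5.32e-05 by quasi-likelihood).

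The lysyl oxidases convert lysines outside the cell into the reactive aldehydes from which crosslinks form, and Pcolce and Pcolce2 enhance removal of the C-propeptide. Of these 7 genes, 4 passed, Loxl1 and Loxl4 with CAST higher and Loxl2 and Loxl3 with B6 higher, and all 7 passed with the block. The shares over all genes tested were 34.6% without and 45.5% with the block, or 30.3% and 62.1% with at least 1000 counts. Loxl1 (chr9:58287738-58313186), the member in Feml2, had 601 to 1813 CAST counts (median 1487) and 477 to 1357 B6 counts (median 1206). CAST was higher in every mouse, from 0.29 in mouse 1 to 0.59 in mouse 4 (median 0.34), which gave 1.34-fold higher CAST expression (log2 fold change 0.42 ± 0.120, FDR = 0.00297). Loxl4 (chr19:42593982-42612813) had a fold change of the same size, with 1223 to 5065 CAST counts (median 3475) and 889 to 3825 B6 counts (median 2688). Its ratios were tighter, 0.33 in mouse 1 to 0.46 in mouse 7 (median 0.40), but its level differed more between mice than that of any other member, and the log2 fold change of 0.42 ± 0.176 had an FDR of 0.0719 without the block and 1.29e-150 with it (1.90e-06 by quasi-likelihood).

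Loxl2 (chr14:69609068-69695834) had 1401 to 3597 CAST counts (median 3482) and 1762 to 5046 B6 counts (median 4666). B6 led in all mice, from -0.55 in mouse 8 to -0.33 in mouse 7 (median -0.47), and the log2 fold change was -0.44 ± 0.116 (FDR = 0.00106). For Loxl3 (chr6:83034173-83052562), 918 to 2631 CAST counts (median 2002) stood against 1008 to 3258 B6 counts (median 2275). All mice were again on the B6 side, between -0.33 in mouse 3 and -0.11 in mouse 1 (median -0.27), with a log2 fold change of -0.23 ± 0.124 (FDR = 0.176). It did not pass with mouse 2, 3, 5 or 8 left out (-0.24 to -0.23). Both genes had summed counts that were never whole and share more than 5% of their exon bases with another gene, 5.70% for Loxl2 and 11.6% for Loxl3. Lox itself was B6-higher in 6 of 7 mice (-0.12 ± 0.147, FDR = 0.657; with the block 0.0160). Pcolce, the highest of the group, had 2584 to 7676 CAST counts (median 6509) and 2327 to 7461 B6 counts (median 6083). Its ratio was close to 0, from -0.03 in mouse 1 to 0.18 in mouse 4 (median 0.04), and its log2 fold change was 0.09 ± 0.129 (FDR = 0.733; with the block 0.00858). Pcolce2 was at -0.11 ± 0.0999 (FDR = 0.498; with the block 0.00959).

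The general ER chaperones serve many secreted proteins. Hspa5 (BiP) and Hsp90b1 (GRP94) are the ER forms of HSP70 and HSP90, Calr and Canx bind glycoproteins, the Pdia genes encode disulfide isomerases, and Dnajb9 and Dnajb11 are co-chaperones of BiP. Genes of this kind are known to be induced together under ER stress through an ER stress element, CCAAT followed by 9 bases of any kind and CCACG. RefSeq promoter windows (GRCm38.p6, from 250 bases before to 50 after the gene start) were matched for 36 of the 45 members, and 5 of these 36 held that element on either strand, against 0.137% of 27025 genes with a window. All 5 are general ER chaperones, the kind of gene for which the element is known, so a share above the background could be foreseen. No stress or induction was measured here. In capitals are the ends of the element, with 5 flanking bases on each side, read on the gene's strand; where the element lies on the other strand the capitals read CGTGG and ATTGG.
Hspa5, chr2:34772020-34772048: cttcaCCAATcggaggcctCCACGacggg
Hsp90b1, upstream copy, chr10:86705633-86705661: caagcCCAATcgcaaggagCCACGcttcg
Hsp90b1, copy nearer the start, other strand, chr10:86705528-86705556: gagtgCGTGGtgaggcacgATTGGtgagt
Calr, other strand, chr8:84847070-84847098: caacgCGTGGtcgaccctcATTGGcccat
Canx, chr11:50325795-50325823: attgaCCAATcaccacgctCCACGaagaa
Pdia6, chr12:17266486-17266514: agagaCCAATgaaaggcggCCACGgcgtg
The elements start between 65 bases (Hspa5) and 212 bases (the upstream copy of Hsp90b1) before the RefSeq gene start. A shorter core, TGACGTG, to which stress factors of the ATF6 and XBP1 kind can bind, was found on either strand in 4 of the 36, against 2.22% of all genes with a window. Besides Hspa5 these were 3 genes of COPII export, shown with the core in capitals. The TGACGTG search overlaps no base of the ER stress elements above.
Hspa5, chr2:34771922-34771950: gggcgtagcaaTGACGTGagttgcggagg
Mia3, chr1:183369634-183369662: tgagcccttgcTGACGTGtcactcgcagc
Sec23a, chr12:59011994-59012022: ctcctccccttTGACGTGgcagaggcggc
Sec24d, chr3:123267459-123267487: gcccgggcgccTGACGTGgcactagcaac
The element TGATGNAA, bound by ATF4, was in none of the 36 windows and in 4.51% of all windows. These are letter matches in the B6 reference and no binding was measured.

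Among the 9 general chaperones, 3 passed the test, each with B6 higher, and 6 passed with the block. Of all genes tested, 34.6% passed, 18.3% with B6 higher, and 45.5% passed with the block (62.1% with at least 1000 counts). Pdia4 (chr6:47796141-47813430) had 737 to 1982 CAST counts (median 1504) and 973 to 2529 B6 counts (median 1969). The B6 allele was ahead in every mouse, from -0.54 in mouse 7 to -0.17 in mouse 4 (median -0.35), with a log2 fold change of -0.33 ± 0.0975 (1.26-fold, FDR = 0.00449). Dnajb9 (chr12:44205559-44210326) rested on 47.0 to 134 CAST counts (median 66.9) and 47.0 to 151 B6 counts (median 117). Its ratios spread from -0.93 in mouse 8 to just under 0 in mouse 7 (median -0.36), so that some mice showed almost no difference, and the log2 fold change was -0.35 ± 0.169 (FDR = 0.123), which did not pass without mouse 1, 3 or 8 (-0.35 to -0.26). Hsp90b1 passed at -0.22 ± 0.110 (FDR = 0.142) with B6 higher in 6 of 7 mice; 15.7% of its exon bases overlap other genes its summed count was never whole, and it did not pass without mouse 3, 5, 7 or 8 (-0.22 to -0.19).

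Of the 5 chaperones with an ER stress element, Hsp90b1 alone passed. Calr, the highest of the group, had 4273 to 9558 CAST counts (median 7178) and 4711 to 10758 B6 counts (median 7903). All 7 mice were slightly on the B6 side, from -0.17 in mouse 4 to -0.06 in mouse 1 (median -0.14), with a log2 fold change of -0.11 ± 0.0873 (FDR = 0.457; with the block 6.23e-08, or 0.00277 by quasi-likelihood). Canx was at -0.06 ± 0.0938 (FDR = 0.753; with the block 0.0327) and Hspa5 at 0.07 ± 0.106 (FDR = 0.759; with the block 0.205). Pdia6 had identical counts for both alleles in all 7 mice, 1366 to 3232 on each (median 2415), so its reads were divided equally and carry no allele information here. Pdia3 (0.07 ± 0.0781, FDR = 0.600) passed with the block by the likelihood-ratio test (FDR = 0.123) but not by quasi-likelihood (FDR = 0.210), and Dnajb11 had a fold change of 0 to 2 decimals with an SE of 0.0819.

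COPII carriers are started by the GTPases Sar1a and Sar1b, coated by Sec23, Sec24 and Sec31 proteins, and enlarged for procollagen with the help of Mia3 (TANGO1). Trip11 encodes a Golgi tether needed by chondrocytes. Of these 8 genes 3 passed, all with CAST higher, and 5 passed with the block, again all with CAST higher. Of all genes tested, 34.6% passed, 16.4% with CAST higher. With the block 45.5% passed, or 62.1% of those with at least 1000 counts. Sar1b (chr11:51763687-51791925) had 118 to 374 CAST counts (median 283) and 88.5 to 285 B6 counts (median 228). The CAST allele led in each mouse, from 0.19 in mouse 4 to 0.53 in mouse 7 (median 0.26), with a log2 fold change of 0.33 ± 0.139 (FDR = 0.0684). Sec24d (chr3:123267455-123365641), the cargo adaptor, had 1167 to 2882 CAST counts (median 2215) and 1010 to 2582 B6 counts (median 2098). Its difference was small but steady, from 0.08 in mouse 3 to 0.24 in mouse 2 (median 0.20), with a log2 fold change of 0.20 ± 0.0888 (1.15-fold, FDR = 0.0900); its summed counts were never whole although it overlaps no other annotated exon. Mia3 passed at 0.17 ± 0.0872 (FDR = 0.155) with CAST higher in 5 of 7 mice, and did not pass without mouse 1, 2, 3, 4 or 7 (0.14 to 0.17).

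Sar1a, the highest of the export genes per base of all exons at a level of 57.3 ± 7.50 (82.1 ± 10.7 per base of the longest transcript, where Sec31a was higher at 102 ± 3.71), had 1245 to 3044 CAST counts (median 2577) and 1045 to 2732 B6 counts (median 2430). Its ratios ran from just under 0 in mouse 8 to 0.28 in mouse 7 (median 0.07), and the log2 fold change was 0.12 ± 0.103 (FDR = 0.471; with the block 0.00311). Sec23b also passed only with the block (0.12 ± 0.0919, FDR = 0.423; with the block 0.0954). Sec23a, Sec31a and Trip11 passed in neither fit, with log2 fold changes of -0.02, -0.02 and -0.10.

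The last 8 genes sense ER stress or answer it. Ern1 (IRE1), Eif2ak3 (PERK) and Atf6 are the sensors in the ER membrane, Xbp1 is spliced by IRE1, Atf4 and Ddit3 (CHOP) act after PERK, and Creb3l1 and Creb3l2 are related membrane-bound factors, of which Creb3l2 is known to switch on Sec23a in cartilage. The 2 kinases among the sensors passed in opposite directions. Ern1 (chr11:106394650-106487852) had 123 to 484 CAST counts (median 304) and 269 to 620 B6 counts (median 444). All 7 mice had more from B6, from -1.12 in mouse 7, which had the fewest counts, to -0.15 in mouse 1 (median -0.51), with a log2 fold change of -0.49 ± 0.105 (1.41-fold, FDR = 2.99e-05). Eif2ak3 (chr6:70844515-70905245) had 391 to 1029 CAST counts (median 661) and 339 to 934 B6 counts (median 613). All mice had slightly more from CAST, from 0.03 in mouse 1 to 0.35 in mouse 8 (median 0.13), with a log2 fold change of 0.17 ± 0.0829 (FDR = 0.141; not passed without mouse 2, 4, 5, 7 or 8, at 0.14 to 0.17), and 8.05% of its exon bases overlap a gene on the opposite strand.

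The third sensor, Atf6, was B6-higher in all 7 mice but by little, -0.06 ± 0.0787 on the log2 scale (FDR = 0.716; with the block 0.202). Atf4, the highest of the group per base of all exons at a level of 79.7 ± 4.83 (93.1 ± 5.64 per base of the longest transcript, where Xbp1 was higher at 102 ± 6.63), had 1028 to 2400 CAST counts (median 1825) and 989 to 3037 B6 counts (median 1877). Its ratios lay on both sides of 0, from -0.40 in mouse 4 to 0.06 in mouse 7 (median -0.12), with a log2 fold change of -0.14 ± 0.0907 (FDR = 0.323; with the block 0.0940). Xbp1 was at -0.08 ± 0.0850 (FDR = 0.587; with the block 0.0530). Creb3l1, Creb3l2 and Ddit3 passed in neither fit, at -0.11, -0.06 and 0.05.

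Many of these genes belong to small families, and their levels per length were compared within each mouse for 16 pairs. Of these, 13 differed at an adjusted p of 0.0192 (exact permutation p = 0.0156 by the same sign flips, n = 7, adjusted over the 16 pairs by Benjamini-Hochberg), each with the same gene higher in all 7 mice. P3h1 was 4.50-fold above P3h2, Pcolce 3.71-fold above Pcolce2, Sar1a 3.26-fold above Sar1b, Calr 7.11-fold above Canx and Creb3l1 1.34-fold above Creb3l2. Among the prolyl 4-hydroxylase alpha subunits, P4ha1 was 14.4-fold and P4ha2 9.75-fold above P4ha3, or 11.2-fold and 15.2-fold per base of the longest transcript. P4ha1 was 1.48-fold above P4ha2 per base of all annotated exons, but 0.738 times it per base of the longest transcript, so the order of these 2 depends on the length used. Both orders passed the exact permutation test (adjusted p = 0.0192 and 0.0227). For every pair the test measures only whether the mice agree. The length chosen shifts all 7 mice alike, so an error in it is not seen. Sec23a was 1.99-fold above Sec23b, and 1.16-fold with the longest transcript.

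Among the crosslinking enzymes the levels lay close together. Loxl4 was 1.58-fold and Loxl2 1.36-fold above Lox, and Lox was 1.28-fold above Loxl1. Lox and Loxl3 did not differ detectably (mean log2 ratio -0.00149 ± 0.374, range -0.58 to 0.47, exact permutation p = 1, n = 7), with Lox higher in 3 of the 7 mice. Among the lysyl hydroxylases, Plod3 was 1.27-fold above Plod1. Per base of the longest transcript this difference was much smaller, with Plod1 at 0.941 times Plod3. The other two pairs did not pass: Plod1 over Plod2 had a mean log2 ratio of -0.22 ± 0.332 (range -0.63 to 0.32, exact permutation p = 0.125, adjusted 0.143, n = 7) and Plod2 over Plod3 one of -0.13 ± 0.363 (range -0.79 to 0.26, exact permutation p = 0.422, adjusted 0.450, n = 7).

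**Figure D3:**
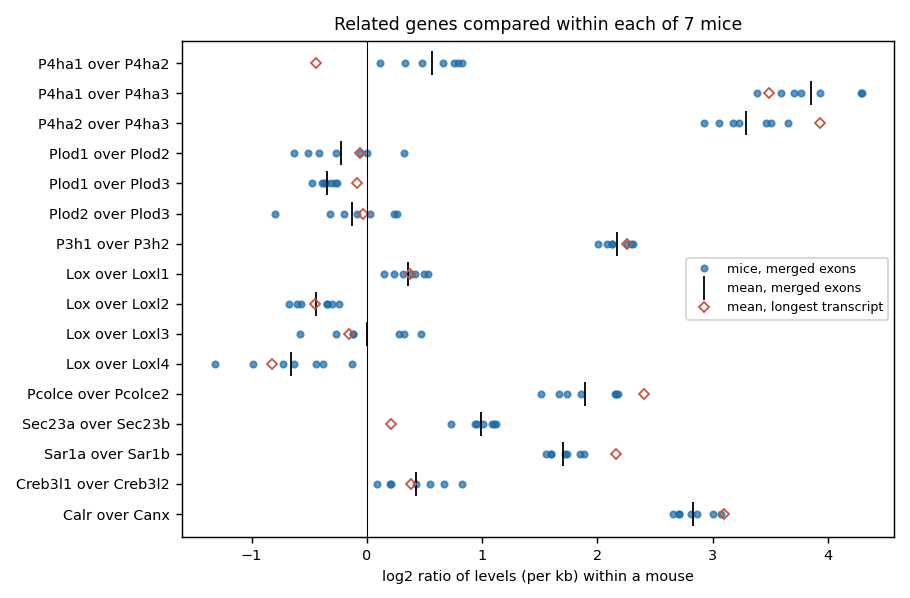
Log2 ratio of the levels of 2 related genes, for 16 pairs in each of the 7 mice; filled points are mice, vertical lines are means with levels per base of merged exons, and open diamonds are means with the longest transcript. Most pairs keep 1 direction, while Lox over Loxl3 and the Plod2 pairs straddle 0 and P4ha1 over P4ha2 changes side with the length used.

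Over the mice, the members' levels had a coefficient of variation from 3.63% for Sec31a to 21.2% for Loxl4, with a median of 11.5%, beside a median of 11.5% over 3262 protein-coding genes with at least 1000 counts. Mice 1, 4 and 7 stood at the edge of several groups, a pattern noticed after the values were seen and given without a test. The 6 genes of procollagen 3-hydroxylation and chaperoning summed to 6150 per 1000000 protein-coding counts in mouse 4 and to between 4276 and 5270 in the others, and 4 of the 6, among them Serpinh1, were highest in mouse 4. The 7 hydroxylases summed to 2889 there and to between 2250 and 2842 in the others. Most of each sum in mouse 4 was 1 gene, Serpinh1 at 4345 and P4hb at 1732. Of the hydroxylases, 4 were highest in mouse 4, while Plod2 was lowest there. Mouse 1 was the lowest for both sums, and for 5 of the 7 hydroxylases and 4 of the 6 procollagen genes. General ER chaperones went the other way, at 1684 in mouse 4 and between 1924 and 2287 in the others, and 8 of the 9 were lowest in mouse 4, Hspa5 being lowest in mouse 3, while 6 of the 9 were highest in mouse 7. COPII genes summed to 1019 in mouse 4 and to between 1096 and 1198 in the others, with 6 of 8 lowest in mouse 4. The sums for stress sensors and factors varied least, from 724 to 785.

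Chondrocyte markers were also highest in mouse 4 and lowest in mouse 1. The summed level of the 11 chondrocyte markers was 137775 per 1000000 protein-coding counts in mouse 4 and between 86012 and 109520 in the others. The 6 osteoblast markers, which ranged from 50265 in mouse 7 to 85989 in mouse 2, stood at 65785 in mouse 4, and the 4 erythroid markers, from 4528 to 11300 over all mice, at 6138. Osteoclast markers (3033 in mouse 4, up to 4312) and endothelial markers (230 in mouse 4, up to 308) were lowest there, with all 4 genes of each list detected. The part of cell composition in the mouse-to-mouse differences was not tested.

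**Figure D4:**
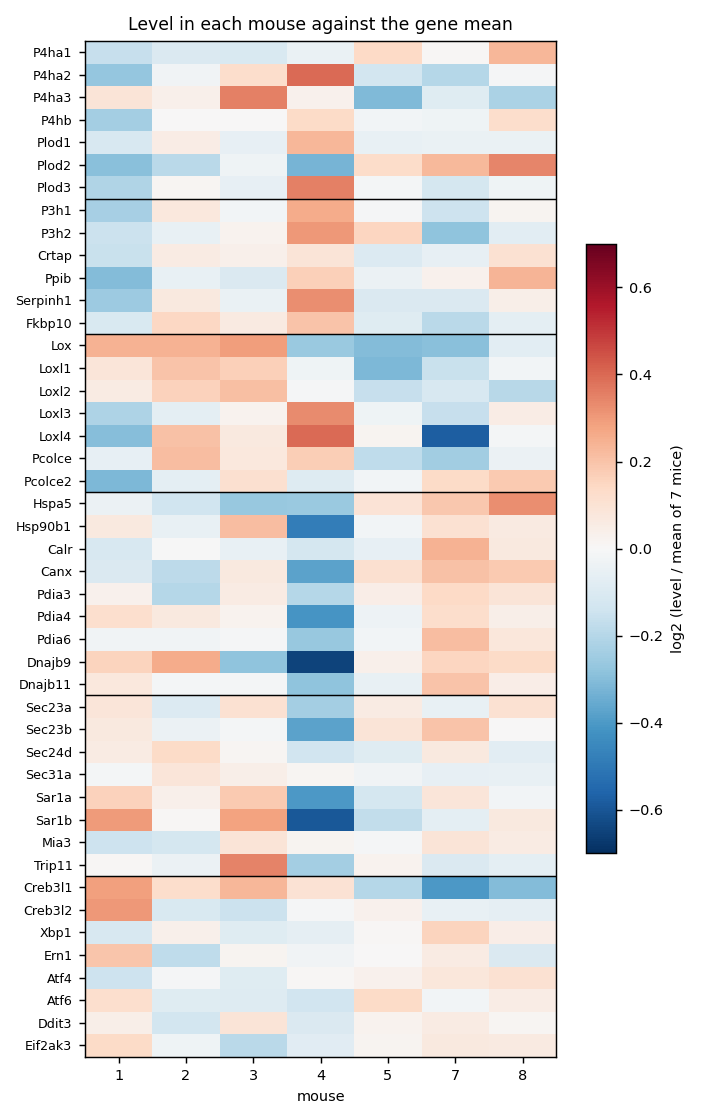
Level of each of the 45 genes in each mouse relative to the gene's mean over the 7 mice, as log2, with genes grouped by role and mice in columns. The column of mouse 4 is the highest for 4 of 7 hydroxylases and 4 of 6 procollagen chaperones. It is the lowest for the hydroxylase Plod2 and for 8 of the 9 general chaperones.

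Other genes of collagen maturation and ER secretion were taken from a list of 72, of which 71 were in the annotation and tested. Of these, 23 (32.4%) passed, 13 with CAST higher and 10 with B6 higher, and 40 (56.3%) passed with the block, beside 34.6% and 45.5% of all genes tested. For genes with at least 1000 counts the background shares were 30.3% and 62.1%. The 71 genes were not split by count. The smallest P-values with CAST higher belonged to the asparagine synthetase Asns, a target of ATF4 (log2 fold change 0.41, FDR = 2.20e-05), the prolyl isomerase Fkbp11 (0.49, FDR = 0.00145) and the stress-related factor Atf5 (0.40, FDR = 0.00234). With B6 higher they belonged to Mbtps2, the protease that releases ATF6 and the CREB3L factors (-4.47, FDR = 6.90e-80), the ER oxidase Ero1lb (-0.97, FDR = 1.89e-05) and Mcfd2, a partner of the cargo receptor Lman1 (-0.40, FDR = 0.000127). Mbtps2 is X-linked, and these males carry a single X chromosome.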

How the data were processed

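Total RNA depleted of rRNA from tibial growth plates of 7 mice was sequenced as stranded paired-end libraries. The authors aligned reads with Bowtie, allowing 3 mismatches, to a joint B6 (mm10) and CAST transcriptome, and quantified alleles with EMASE; the deposited values are estimated counts per gene and allele, and they need not be whole numbers. Whether a count is a read or a fragment, and whether strand was used in counting, is not given in the sources used here, so overlapping genes on opposite strands may share counts.

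Values at or below 1e-09 were set to 0. Gene symbols and exons came from GENCODE M21, which held 42462 of the 43346 identifiers. Counts were rounded and fitted with edgeR 4.0.16 (TMM, glmFit and glmLRT, CAST against B6, all 14 allele columns); genes had to have a count on either allele in each of the 7 mice, which left 20229, with Benjamini-Hochberg adjustment over all of them and an FDR threshold of 0.20. The ratio per mouse was log2 of (CAST + 0.5) over (B6 + 0.5), tested by an exact sign-flip permutation test. Levels were divided by merged exon length. The blocked fit uses the mouse, because the CAST and B6 columns with the same number are the same animal and library; the deviations of the alleles correlated within a mouse by 0.0604 on average (lowest -0.0534, 15103 genes), while the highest correlation between different mice was 0.172, so the block rests on the shared animal and not on this check, and no pair of libraries was duplicated (chi-square per degree of freedom of at least 13.1 over 21 pairs). The 7 libraries were separate animals. On simulated data, the fits were checked only for the direction and the mean error of planted fold changes. The simulation did not include reads divided between alleles or genes, so it does not bear on the size of the FDRs. Alternatives used DESeq2 1.42.0 and other filters, scalings and lengths.

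Members and lists were chosen with earlier results of these data known. Described in full are the members that passed with 1 direction in all mice and the member with the highest level of each role; of the other pathway genes, the 3 smallest P-values in each direction are named. Protein sequences were not used here.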

Additional observations from a re-analysis of the deposited data

Results flagged for a closer look

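Among 89 sets of 7 mice (the allele ratio and the level of each member, the ratio of Pdia6 left out), 11 held a mouse set far apart from the other 6 by Dixon's criterion, where chance gives about 1 in 20 sets, or 4.45 of 89.

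For the log2 ratio of CAST to B6, Plod1 in mouse 5 was at -0.46 with the others between -0.77 and -0.66, still on the B6 side. Crtap in mouse 2 was at -0.0714 beside 0.04 to 0.12, Lox in mouse 8 at 0.10 beside -0.23 to -0.10, Sec23a in mouse 3 at 0.15 beside -0.11 to -0.00358, and in each of these 3 the sign was opposite to the other mice. In mouse 7, the library with the fewest counts, Ppib was at 0.25 beside 0.14 to 0.18, Pdia3 at -0.18 beside 0.02 to 0.18, and Ern1 at -1.12 beside -0.55 to -0.15, on a total of 392 counts.

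For levels, mouse 4 was apart in Plod3 (57.1 beside 38.7 to 45.1) and in Pdia4 (51.2 beside 66.5 to 74.1), in opposite directions. The Golgi tether Trip11 was at 5.60 in mouse 3 beside 3.74 to 4.48, and the factor Creb3l2 at 21.4 in mouse 1 beside 15.6 to 17.7.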

How the results depend on the processing

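With the mouse as a replicate block, 35 members passed (17 with CAST higher, 18 with B6 higher) by the likelihood-ratio test and 34 (16 and 18) by the quasi-likelihood test, and 40 and 39 of the other pathway genes passed; the added calls are named beside the genes, and no direction turned. When only genes whose totals were whole were fitted, 27 members were left, of which 8 passed (5 CAST, 3 B6), and 3497 of all genes passed, fewer by construction. At an FDR of 0.05, 10 members passed, 3 with CAST higher. Among directions, Pdia6 moved to 0 with 1 library size per mouse, Dnajb11 to 0.00789 unrounded and 0.000529 with whole totals alone (-0.0342 to 0.0104 with 1 mouse left out), and P4ha1 over P4ha2 to -0.44 with the longest transcript; no call changed with the first 2 genes. The median spread was 11.1% when scaled to all counts and 11.3% with TMM scaling of totals. With the quasi-likelihood test, DESeq2, a minimum of 10 counts or no filter, 18 members passed, and 17 did with unrounded counts (Loxl3 lost), autosomal genes alone (Mia3 lost) or 1 library size per mouse (Mia3 and Eif2ak3 lost, Fkbp10 gained). Leaving out 1 mouse gave 14 to 17 members (6 to 7 CAST, 7 to 11 B6), 6275 to 6857 of all genes, 19 to 22 other pathway genes and 13 paralog pairs. With the longest transcript, 25 of the 45 levels moved by more than their SD over the mice.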
